A study of Mus musculus with 38 samples.

Results

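Transcripts of mouse embryonic stem cells were compared between 24 h and 6 h after removal of BRM014, an inhibitor of the SWI/SNF remodelling ATPases, in 4 of the 38 RNA libraries of the series (2 per time). These were the libraries that the labels give as washed for 6 h or 24 h after 24 h of BRM014, in experimental batch 2450. The cells were wild type, of 129S6/SvEvTac background, and grew on gelatin in medium with serum and leukemia inhibitory factor (LIF). The labels give no dose for the washed cells. From the same batch, with 2 libraries each, wild-type cells in DMSO for 24 h or 1 h, in 10 uM BRM014 for 24 h or 6 h and in 10 uM of an inactive analog for 24 h are given for reference, and all compounds had been dissolved in DMSO. A second batch, 2457, served to choose genes by the response of wild-type cells to 24 h of BRM014 against DMSO, and values from it are named as such. Its 12 libraries include Ino80 and Snf2h knockout lines, which entered the fit of that batch but not this comparison. No group was washed after DMSO, and no vehicle group has the total culture time of a washed group, so time in culture, the wash itself and release from the drug cannot be told apart. The protocols call the replicates biological without naming cultures, and p-values therefore measure the spread between these libraries, part of which may be technical.

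SWI/SNF complexes use ATP to slide or evict nucleosomes, and so keep enhancers and promoters open to transcription factors. Their motor is BRG1 (Smarca4) or BRM (Smarca2), and BRM014 blocks the ATPase activity of both. In embryonic stem cells the BRG1 form works beside the pluripotency factors, and the LIF, FGF and Nodal pathways feed into the same enhancers. Once a reversible inhibitor is removed, transcripts can approach the vehicle level, stay away from it or pass it, and long-lived RNAs lag behind transcription.

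The 4 washed libraries hold 19.5 to 22.2 M counts on 15456 to 16153 genes with at least 1 count, and levels below are CPM, the counts of a gene scaled to a common library size. Genes listed at 0 counts in every library of the deposited table, such as Smarca4, Sox2 and Atf4, have no measured level here. Embryonic stem cell markers summed to 6343 to 6561 CPM in the 4 libraries, and their 9 members were all detected. The 5 mesoderm markers summed to 53.6 and 56.8 CPM at 6 h and to 6.98 and 7.19 CPM at 24 h, and most of the sum was Kdr at 6 h, while Eomes was above Kdr at 24 h. Markers of primitive endoderm summed to 223 and 223 against 189 and 177 CPM, those of neural cells to 19.1 and 19.8 against 11.9 and 10.8, those of trophoblast to 4.33 and 3.98 against 3.46 and 2.50, and those of fibroblast feeders to 13.2 and 10.7 against 11.0 and 9.42. Pdgfra, Sox1, Tubb3, Gata3, Col1a2 and Col3a1 are listed at 0 in every library. In bulk RNA, fewer cells of a type and less RNA per cell cannot be told apart, and the part of such cells in any result was not tested.

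Between 6 h and 24 h after washout the transcriptome kept moving. Among genes with a mean log2 CPM of at least 2 in the washed libraries, the largest rises included Chac1, Nupr1 and Trib3 of the amino acid response and Slc6a9, Pck2 and Gpt2. The largest falls included the surface genes Kdr and Esam, which stood above both vehicle and drug at 6 h. The edgeR quasi-likelihood test called 5046 of 12517 genes (40.3%) at an adjusted p under 0.05, 2383 higher (19.0%) and 2663 lower (21.3%) at 24 h. Of these, 321 rose (2.56%) and 553 fell (4.42%) by at least 2-fold. The median log2 change over all genes tested was -0.02, and the 95% interval of a well-expressed gene spanned a median of ± 0.20 on the log2 scale. Against DMSO at 24 h, the test called 4983 genes (39.8%) at 6 h of washout and 2181 (17.4%) at 24 h, and these comparisons share the vehicle libraries. As a measure of change in unwashed culture, DMSO at 24 h differed from DMSO at 1 h in 2320 genes (18.5%). The change over the 18 h of washout differed from the change over these 23 h of vehicle in 3454 genes (27.6%), 1684 more positive and 1770 more negative in washout, with unequal intervals. Gene list counts below stand beside these shares of all genes, 19.0% higher, 21.3% lower and 27.6% different from vehicle over time.

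**Figure D1:**
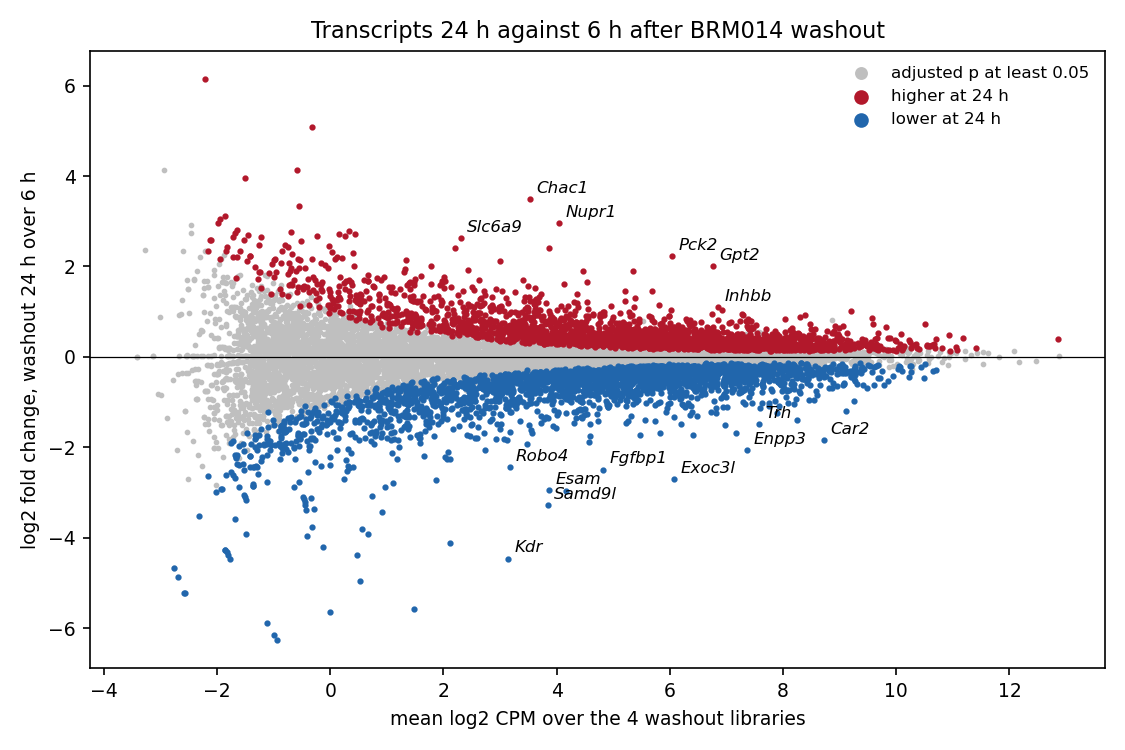
Each point is 1 of the 12517 genes tested, with the mean log2 CPM of the 4 washed libraries on the x axis and the log2 fold change of 24 h over 6 h of washout on the y axis. Red points (2383) were called higher and blue points (2663) lower at 24 h, grey points were not called, and the labelled genes run from Chac1 (3.49) to Kdr (-4.46).

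The amino acid response showed the most uniform rise. ATF4, a transcription factor made when amino acids are short or the endoplasmic reticulum is stressed, drives genes of amino acid synthesis, uptake and one-carbon metabolism. Of the 22 listed genes of this response 14 could be tested, and 12 of them were higher and 0 lower at 24 h, with a median change of 0.72 against -0.02 over all genes. Atf4 and Ddit3, its main factors, are among 8 members listed at 0. At 6 h of washout the median of the 14 was -0.70 against DMSO at 24 h.

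Chac1, which breaks down glutathione, stood at 4.06 and 2.72 CPM in the 6 h libraries and 41.9 and 35.4 CPM in the 24 h libraries. Vehicle held 25.02 and 24.5 CPM at 24 h and BRM014 39.998 and 45.6 CPM, so the 6 h libraries were the low ones and overlapped neither of them. The rise was 3.49 ± 0.16 on the log2 scale (adjusted p = 5.12e-16), or 11.3-fold, and Chac1 at 24 h of washout was above vehicle by 0.64 ± 0.12 (adjusted p = 0.00052). Nupr1, a stress-induced chromatin cofactor, went from 5.80 and 5.89 to 43.2 and 47.8 CPM (2.96 ± 0.15, adjusted p = 6.32e-15). Vehicle had 23.1 and 19.8 CPM, so Nupr1 passed it, by 1.08 ± 0.13 (adjusted p = 5.88e-07). Trib3, a pseudokinase that restrains ATF4 signalling, moved from 20.8 and 21.5 to 84.7 and 72.1 CPM (1.89 ± 0.08, adjusted p = 3.55e-16), beside 69.3 and 66.5 CPM in vehicle. The inactive analog at 24 h was above vehicle too. It held 56.4 and 48.0 CPM of Chac1, 29.5 and 37.6 of Nupr1 and 123 and 115 of Trib3. All 3 genes had been chosen among those with separated washout groups, and all 3 had been lower at 6 h of washout than after 24 h of the drug.

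Libraries taken after 6 h of BRM014, which like the 6 h washout libraries were harvested 6 h after their last labelled treatment change, were low in the same genes. They held 3.80 and 3.85 CPM of Chac1, 2.48 and 2.21 of Nupr1, 25.2 and 28.1 of Trib3 and 302 and 303 of Psat1. No DMSO group of 6 h is among the labelled libraries, so whether time since the treatment change sets these levels was not tested.

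Enzymes of serine and asparagine synthesis followed with smaller changes and much higher levels. Psat1, which makes phosphoserine, stood at 417 and 406 CPM at 6 h and 808 and 860.3 CPM at 24 h, where vehicle had 793 and 866 CPM (1.02 ± 0.05, adjusted p = 8.64e-15). Asns, asparagine synthetase, went from 381 and 385 to 602 and 626 CPM (0.68 ± 0.05, adjusted p = 3.57e-11), and Phgdh, the first enzyme of serine synthesis, from 108 and 113 to 223 and 205 CPM (0.96 ± 0.09). Vldlr, a lipoprotein receptor (1.55 ± 0.15), Ddit4, an mTOR inhibitor (0.75 ± 0.21), the mitochondrial serine hydroxymethyltransferase Shmt2 (0.64 ± 0.08), Psph (0.62 ± 0.07) and the transporter genes Slc7a5 (0.42 ± 0.06) and Slc3a2 (0.21 ± 0.05) completed the 12. Atf5 (-0.23 ± 0.14) and Slc7a3 (-0.02 ± 0.06) were not called. The vehicle also changed over time in this list: Psat1 rose from 429 and 429 CPM at 1 h to its 24 h level, and the washout change exceeded the vehicle change by 0.07 ± 0.07 for Psat1 (adjusted p = 0.543) and 0.19 ± 0.07 for Asns (adjusted p = 0.0591). For Chac1 the excess was 2.98 ± 0.21 (adjusted p = 2.42e-11), and over the list 6 of 14 changed more positively and 2 more negatively than vehicle.

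**Figure D2:**
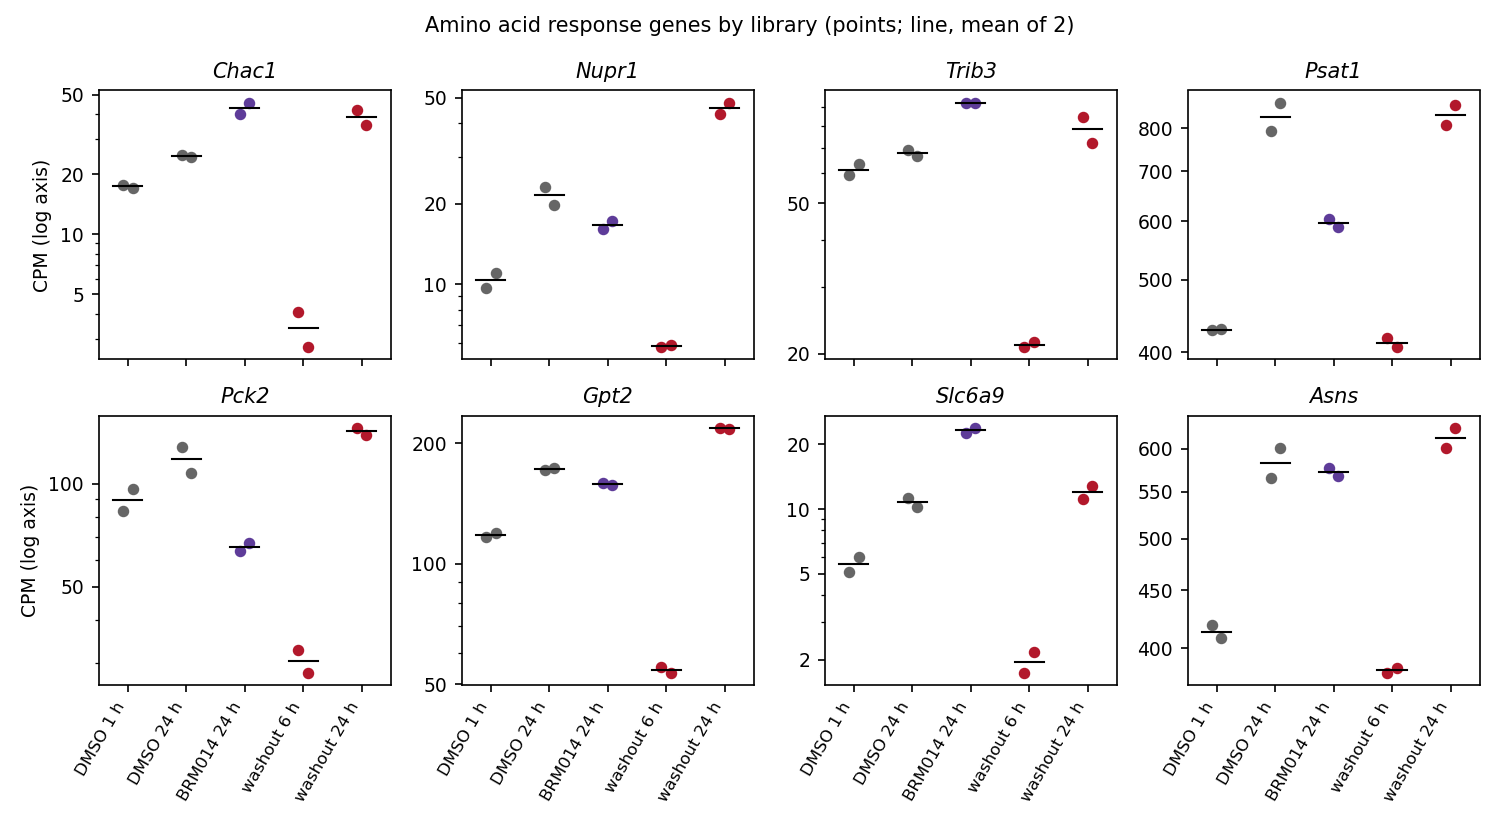
CPM on a log axis for 8 genes of amino acid metabolism and stress, 1 point per library and a line at the mean of 2, in the 5 groups named on the x axis. In all 8 panels both 6 h washout points lie below both 24 h washout points. In Chac1, Nupr1, Trib3, Pck2, Gpt2 and, narrowly, Asns both 24 h washout points also lie above both points of DMSO at 24 h.

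Some of the largest rises outside that list were of genes of amino acid and mitochondrial metabolism, a grouping made after their values were seen. Slc6a9, the glycine transporter GLYT1, went from 1.74 and 2.166 to 11.2 and 12.9 CPM (2.63 ± 0.20, adjusted p = 1.92e-11). Pck2, the mitochondrial enzyme that makes phosphoenolpyruvate, went from 32.8 and 28.1 to 145 and 139 CPM (2.22 ± 0.09, adjusted p = 5.42e-17), with 63.6 and 67.1 CPM after 24 h and 27.8 and 28.7 CPM after 6 h of the drug. Gpt2, the mitochondrial alanine aminotransferase, had 55.4 and 53.6 CPM at 6 h and 218 and 217 CPM at 24 h (2.00 ± 0.06, adjusted p = 1.07e-20), the smallest adjusted p among the rises named. Its vehicle level was 171 and 173 CPM, and Gpt2 at 24 h of washout was above it by 0.34 ± 0.05 (adjusted p = 3.17e-05). The inactive analog at 24 h held 260 and 257 CPM of Gpt2 and 184 and 191 of Pck2, also above vehicle. The mitochondrial folate enzyme Aldh1l2 (2.41 ± 0.22) and the secreted glycoprotein gene Stc2 (2.40 ± 0.13) rose from 1.96 to 10.4 and from 6.29 to 33.3 mean CPM. The rest of the 15 largest rises were Crabp1, a retinoic acid binding protein (2.13 ± 0.18), the complement protease gene C1s1 (1.92 ± 0.20), Pter (1.77 ± 0.20), the G protein subunit gene Gna14 (1.70 ± 0.17), the tight junction gene Tjp3 (1.69 ± 0.17), the ciliary gene Tekt1 (1.68 ± 0.25) and the calcium pump gene Atp2a3 (1.61 ± 0.14).

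Promoter windows of these genes were searched for TGATGNAA, the core of the composite C/EBP-ATF site through which ATF4 acts, on both strands of 300 bases (250 before to 50 after the RefSeq start, GRCm38.p6). It was present in 5 of the 11 called members of the amino acid list that have a window (45.5%) and in 7 of 14 of the largest rises (Chac1, Nupr1 and Trib3 are in both sets). Of all 27025 genes with a window, 1219 had it (4.51%). The list was made of genes of the ATF4 response, and only its members called higher were searched. The largest rises were picked from these same data. The shares therefore cannot test a link between the motif and the rise, and none was tested. A match describes the letters and is neither a shown binding site nor a cause. The windows below are shown because they carry the match, with the motif in capitals, 5′ to 3′ on the gene's strand; a match on the other strand reads TTNCATCA.
Chac1 (chr2:119351023-119351082, plus strand): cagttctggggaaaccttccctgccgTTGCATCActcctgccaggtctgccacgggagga
Nupr1 (chr7:126625547-126625606, minus strand): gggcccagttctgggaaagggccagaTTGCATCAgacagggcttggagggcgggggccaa
Asns (chr6:7693210-7693258, minus strand): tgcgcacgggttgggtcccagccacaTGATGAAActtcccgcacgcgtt
Vldlr (chr19:27216794-27216853, plus strand): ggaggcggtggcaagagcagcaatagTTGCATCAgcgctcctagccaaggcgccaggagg
Pck2 (chr14:55540137-55540196, plus strand): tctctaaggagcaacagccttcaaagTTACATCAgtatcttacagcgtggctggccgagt
Chac1, Nupr1 and Vldlr share the 8 letters TTGCATCA, which lie 193, 110 and 200 bases before the start, and the Asns match lies 23 bases before it. The match in Trib3 lies after the start and is not printed.

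The largest falls included 3 members of the endothelial and surface mesoderm list, Kdr, Esam and Robo4. Kdr, the VEGF receptor VEGFR2 (chromosome 5, rounded positions 75932800 to 75978500, minus strand, GRCm38), stood at 38.7 and 42.2 CPM at 6 h and 2.04 and 1.64 CPM at 24 h. Vehicle held 2.66 and 2.10 CPM at 24 h and the drug 3.79 and 4.09 CPM, so the 6 h washout libraries alone were high among these groups. The fall was -4.46 ± 0.23 (adjusted p = 3.96e-14), and Kdr at 24 h of washout differed from vehicle by -0.39 ± 0.31 (adjusted p = 0.441). Esam, an adhesion molecule of endothelial junctions, fell from 42.9 and 37.8 to 5.45 and 4.96 CPM (-2.96 ± 0.16, adjusted p = 1.22e-14), with 6.89 and 5.24 CPM in vehicle and 2.27 and 3.12 under the drug. Exoc3l, related to an exocyst subunit, fell from 173 and 172 to 29.8 and 22.99 CPM (-2.71 ± 0.11, adjusted p = 1.05e-16), against 34.99 and 31.5 CPM in vehicle. In each of these 3 genes the 6 h level exceeded both the vehicle and the drug level, and cells in BRM014 for 6 h were low (Kdr at 1.41 and 1.60, Esam at 3.76 and 4.32 and Exoc3l at 29.4 and 27.3 CPM).

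Robo4, a guidance receptor of endothelium, fell from 20.5 and 21.01 to 3.92 and 3.69 CPM (-2.45 ± 0.15, adjusted p = 2.08e-13), but DMSO fell as well, from 20.1 and 20.1 CPM at 1 h to 5.28 and 5.45 at 24 h. The change in washout minus that in vehicle was -0.54 ± 0.21 for Robo4 (adjusted p = 0.0551). The calcium channel gene Ryr3 likewise fell (-2.26 ± 0.19) with a difference from vehicle of -0.47 ± 0.28 (adjusted p = 0.229). Mmrn2, an extracellular matrix gene of vessels, fell from 44.9 and 45.4 to 11.7 and 12.8 CPM (-1.88 ± 0.11) and ended below vehicle, which held 31.3 and 32.2 CPM (-1.37 ± 0.11, adjusted p = 7.7e-10). The inactive analog at 24 h was below vehicle too, at 8.96 and 9.29 CPM. Mcam, an adhesion molecule of vessels and muscle, went from 212 and 211 to 73.6 and 74.2 CPM (-1.51 ± 0.07, adjusted p = 2.51e-15).

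The endothelial list as a whole was mixed. Of 11 tested, 6 were lower and 2 higher at 24 h (median -0.43). Vcam1, an adhesion molecule for leukocytes, fell (-2.79 ± 0.28) from 5.89 and 4.79 to 0.713 and 0.819 CPM, and Icam1 (-0.43 ± 0.06) and Pecam1 (-0.22 ± 0.07) fell by less. The angiopoietin receptor gene Tek (-0.20 ± 0.11) and the VEGF receptor gene Flt1 (0.13 ± 0.11) were not called. Cdh5, the cadherin of endothelial junctions, rose from 1.87 and 2.07 to 4.48 and 3.19 CPM (0.95 ± 0.30), and Cd34 rose by 0.93 ± 0.20. The 2 rises became 1 without replicate 1 of either washout time.

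Of 12 mesoderm and primitive streak genes 6 were lower and 0 higher at 24 h (median -0.80). Besides Kdr these were the streak factor T, from 5.18 and 5.09 to 0.204 and 0.501 CPM (-3.81 ± 0.39), Eomes, from 8.61 and 8.56 to 3.31 and 3.51 CPM (-1.33 ± 0.18), Wnt3 (-1.09 ± 0.31), Evx1 (-2.07 ± 0.50) and Cdx2 (-0.80 ± 0.28). The call of Cdx2 was lost without 24 h replicate 2 (-0.51, adjusted p = 0.276), without 6 h replicate 1 (adjusted p = 0.148) and without 6 h replicate 2 (adjusted p = 0.0525), and that of Evx1 without 24 h replicate 2 (-1.33, adjusted p = 0.0821). Relative to vehicle over time, 0 of the 12 changed more positively and 3 more negatively, beside 1684 and 1770 of all 12517 genes. All but Kdr stayed under 10 CPM in the washed libraries. The streak markers Mixl1 (0.60 ± 0.41), Tbx6 (-0.11 ± 0.48) and Gsc (0.47 ± 0.65) were not called. The summed mesoderm markers given above move with this list, and their share in it was not tested.

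**Figure D3:**
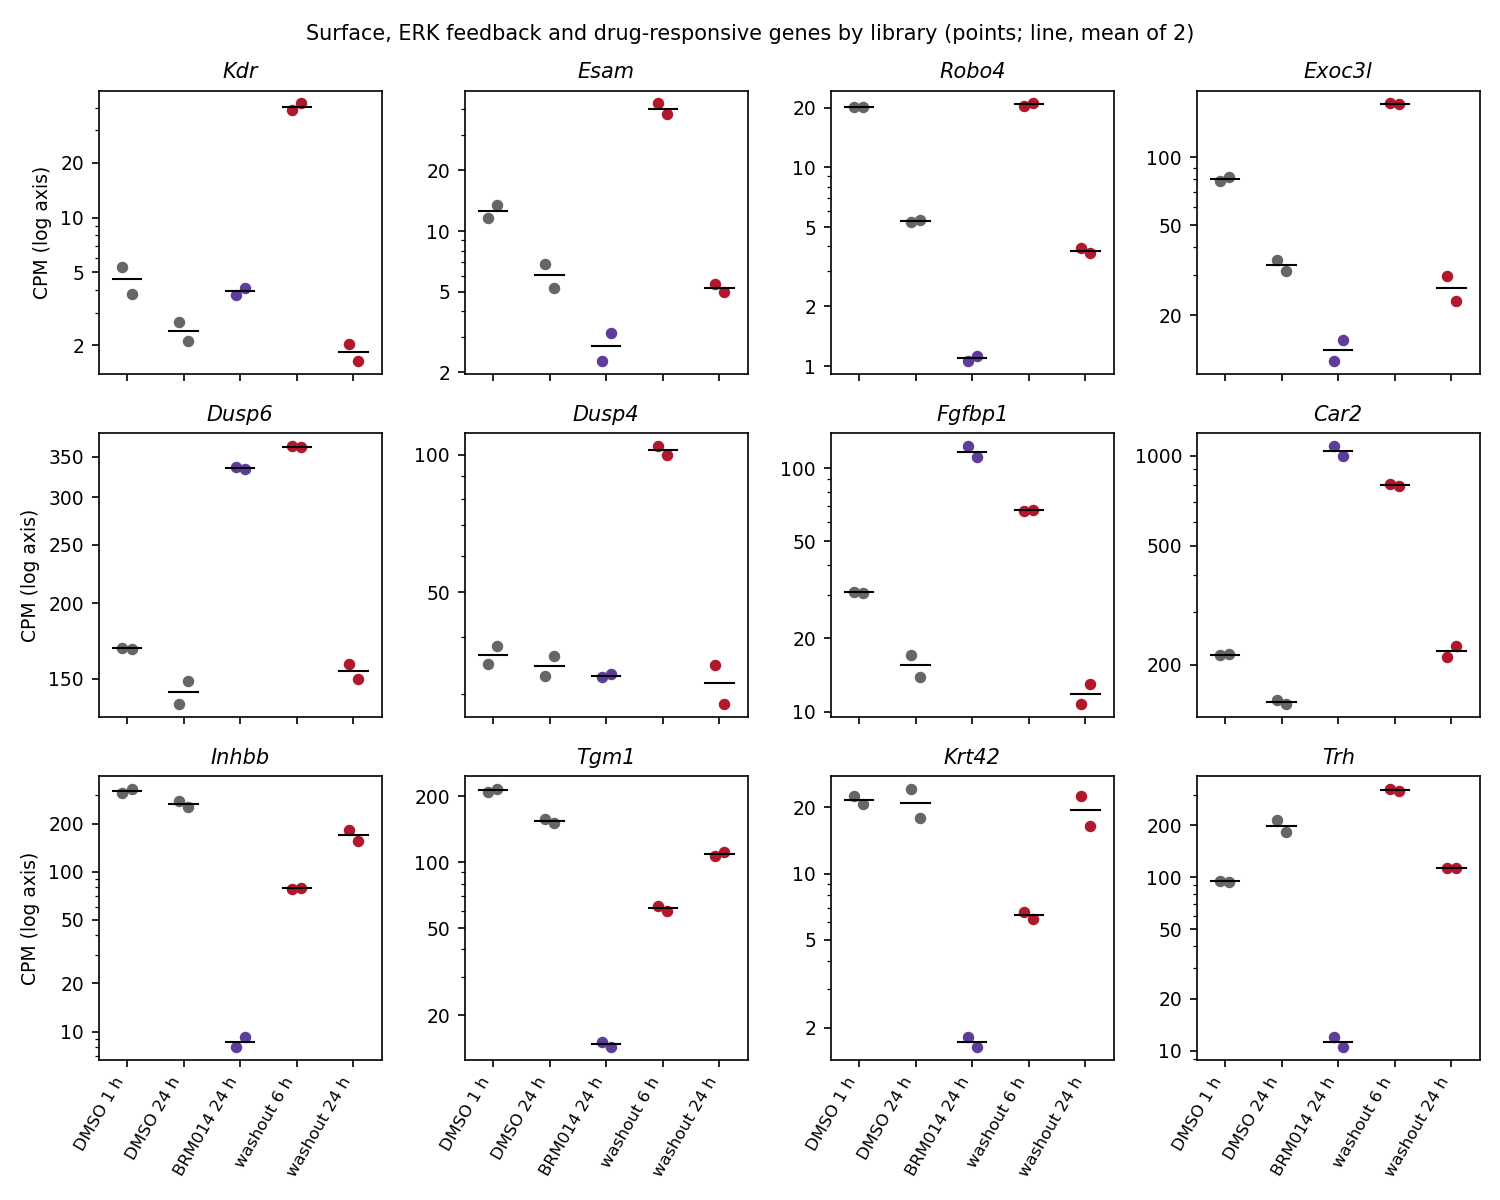
CPM on a log axis for 12 genes in 5 groups, 1 point per library and a line at the mean of 2. Kdr, Esam, Exoc3l and Dusp4 are highest at 6 h of washout, Fgfbp1 and Car2 are highest under BRM014, Inhbb, Tgm1 and Krt42 lie between drug and vehicle at 6 h, and Trh is above DMSO 24 h at 6 h of washout and below it at 24 h.

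Genes of the ERK pathway fell nearly as a group. ERK signalling downstream of FGF receptors induces its own inhibitors, among them the Dusp phosphatases and the Sprouty and Spred proteins, together with Etv factors. Of 18 tested genes of this feedback list 15 were lower and 2 higher at 24 h, with a median of -0.71. Dusp6, the phosphatase of ERK, stood at 364 and 363 CPM at 6 h and 158 and 150.04 CPM at 24 h (-1.24 ± 0.06, adjusted p = 4.45e-16). Under BRM014 it held 336 and 334 CPM and in vehicle 136 and 149 CPM, so the 6 h libraries were the highest of these groups and the 24 h libraries lay near vehicle. Dusp4 (104 and 99.95 to 34.7 and 28.5 CPM, -1.69 ± 0.09, adjusted p = 3.96e-14) was at 32.7 and 33.1 CPM under the drug, so its 6 h level was above both. Fgfbp1, whose product releases FGFs from matrix, fell from 66.6 and 67.4 to 10.7 and 12.9 CPM (-2.50 ± 0.10, adjusted p = 1.56e-17).

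The other falls of the list were of Fgf5 (-2.44 ± 0.40), Dusp5 (-1.23 ± 0.13), the receptor antagonist gene Il17rd (-0.82 ± 0.08), Spry4 (-0.76 ± 0.13), Spred2 (-0.75 ± 0.12), Etv1 (-0.75 ± 0.12), Fgfr3 (-0.67 ± 0.12), Etv5 (-0.61 ± 0.06), Etv4 (-0.53 ± 0.06), Spry2 (-0.47 ± 0.13), Fgfr1 (-0.46 ± 0.07) and Spred1 (-0.41 ± 0.08). The ligand genes Fgf4 and Fgf15 moved the other way, Fgf4 from 240.4 and 231 to 349 and 347 CPM (0.56 ± 0.06, adjusted p = 7.13e-09) and Fgf15 from 19.9 and 20.001 to 39.6 and 34.3 CPM (0.89 ± 0.10), both lower under the drug (123 and 126 and 5.15 and 6.39 CPM). Fgf17 was not called (-0.19 ± 0.08). Relative to vehicle over time, 13 of the 18 changed more negatively and 1 more positively. Immediate early genes, which respond to the same and other signals within minutes, were lower in 10 of 16 and higher in 1 (median -0.50). Klf6 (-0.74 ± 0.06), Arc (-0.96 ± 0.09), Nr4a1 (-0.56 ± 0.09), Myc (-0.57 ± 0.10) and Fosl1 (-1.69 ± 0.34) fell, and Nr4a2 (1.07 ± 0.40) rose. Without 6 h replicate 1 the lower count was 5 of 16, and the higher count ranged from 0 to 2 over the single libraries left out. Vehicle fell as well in Myc, and its washout change minus the vehicle change was 0.04 ± 0.14 (adjusted p = 0.878). Over the immediate early list, 8 of 16 changed more negatively than vehicle over time and 0 more positively.

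Targets of p53, the tumour suppressor that halts the cell cycle after damage, were lower in 15 of 19 and higher in 1 at 24 h (median -0.46). Ccng1, a p53-induced cyclin, went from 645 and 680.0 to 417 and 449 CPM (-0.61 ± 0.06, adjusted p = 5.81e-09), and vehicle held 619.8 and 693 CPM at 24 h, 475 and 476 at 1 h. Its 6 h washout level was thus at the vehicle 24 h level and its 24 h washout level was below both vehicle times. Ccng1 was also below vehicle at 24 h in the inactive analog (392 and 427 CPM) and in BRM014 (323 and 324 CPM). Trp73, a p53 relative, fell from 7.05 and 5.24 to 2.34 and 2.05 CPM (-1.49 ± 0.19, adjusted p = 4.2e-07), Cdkn1a, the cell cycle inhibitor p21, from 24.5 and 25.5 to 14.06 and 15.8 (-0.74 ± 0.13), and Trp53inp1 from 387 and 411 to 246 and 261 (-0.65 ± 0.08). Mdm2, the ligase that degrades p53, fell (-0.34 ± 0.06), as did Gtse1 (-0.44 ± 0.06), Aen (-0.59 ± 0.08), Phlda3 (-0.74 ± 0.11) and Pmaip1 (-0.48 ± 0.09). Gdf15, a secreted stress factor, rose from 1.07 and 1.56 to 4.23 and 2.78 CPM (1.41 ± 0.33). Vehicle gained several of these transcripts between 1 h and 24 h, and the change in washout was more negative than that in vehicle in 18 of 19 and more positive in 0.

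Return of drug-responsive genes was read in genes chosen in the other batch, by a called change of at least 2-fold after 24 h of BRM014 (975 genes lowered, 7.43% of those tested there, and 653 raised, 4.97%). Of 950 tested genes that the drug had lowered there, 244 rose (25.7%, against 19.0% of all genes) and 188 fell (19.8%, against 21.3%) between 6 h and 24 h, and 518 were not called. Their median over DMSO 24 h was -1.43 and -1.44 log2 units in the libraries under the drug, -0.16 and -0.20 at 6 h of washout and -0.06 and -0.12 at 24 h, so most of the median loss had been regained by 6 h. Single genes were spread around this median. From 6 h to 24 h, 101 of the 950 rose and 96 fell by at least 2-fold, beside 2.56% and 4.42% of all genes. The quartiles of the change were -0.45 and 0.65. Of 601 tested genes that the drug had raised, 22 rose (3.66%) and 228 fell (37.9%), and 351 were not called. Their median was 1.21 and 1.19 under the drug, 0.55 and 0.58 at 6 h and 0.15 and 0.13 at 24 h. The inactive analog at 24 h stood at -0.42 and -0.50 for the lowered and 0.31 and 0.29 for the raised genes.

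**Figure D4:**
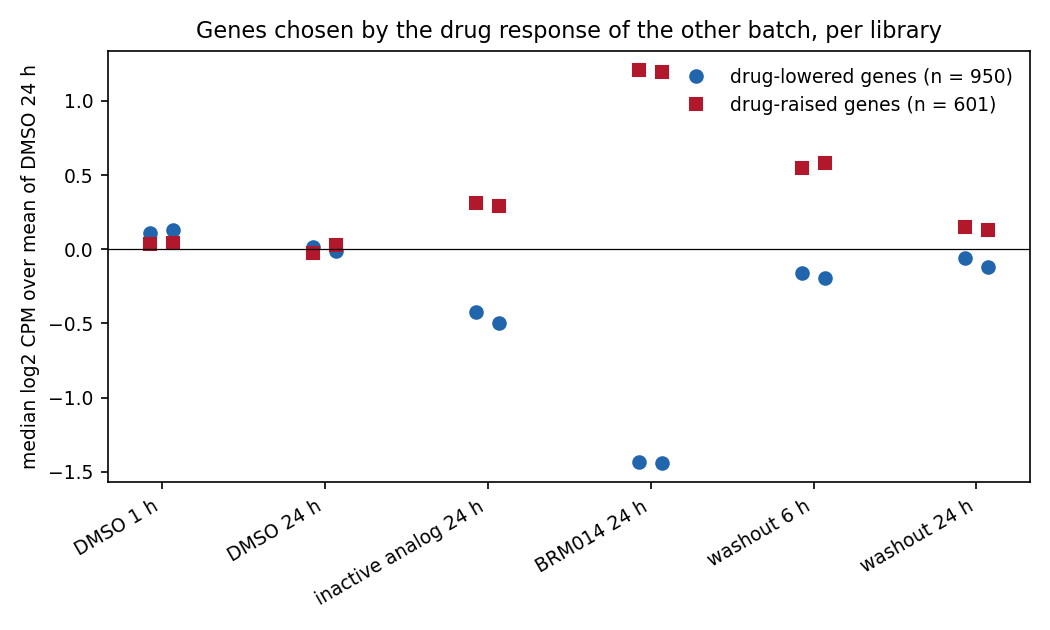
Median log2 CPM over the mean of DMSO 24 h, 1 point per library, for the 950 drug-lowered (circles) and 601 drug-raised (squares) genes chosen in the other batch. At 6 h of washout the raised genes are at 0.55 and 0.58 and the lowered genes at -0.16 and -0.20, and at 24 h they are at 0.15 and 0.13 and at -0.06 and -0.12.

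Of the 8 genes that the drug had lowered most in the other batch, among those with a mean log2 CPM of at least 2 there, 6 rose between 6 h and 24 h. Inhbb, the activin beta B subunit, was at 8.03 and 9.25 CPM under the drug, 78.5 and 79.2 at 6 h, 182 and 156 at 24 h and 276 and 253 CPM in vehicle, with no overlap between neighbouring groups (1.10 ± 0.07, adjusted p = 1.05e-12). It remained below vehicle at 24 h (-0.65 ± 0.07, adjusted p = 9.61e-08). Tgm1, which cross-links the epidermal envelope, went from 63.2 and 60.3 to 107 and 111 CPM (0.82 ± 0.06) towards 158 and 152 CPM. The keratin gene Krt42 rose from 6.69 and 6.25 to 22.4 and 16.4 CPM (1.58 ± 0.16), where vehicle had 24.1 and 17.8, and the muscle fusion peptide gene Mymx (0.76 ± 0.11), the membrane protein gene Emp1 (0.73 ± 0.12) and the myosin gene Myo1g (1.32 ± 0.13) rose too. Myo1g passed the 24 h vehicle, with 19.8 and 16.5 CPM at 24 h of washout against 10.01 and 11.1 CPM. It stayed below DMSO at 1 h, which held 21.6 and 23.1 CPM. Igsf21, a synaptic adhesion molecule, held 12.4 and 14.5 CPM at 6 h and 15.4 and 8.28 CPM at 24 h (-0.19 ± 0.21, adjusted p = 0.508) against 25.3 and 23.3 CPM in vehicle. Its 24 h libraries bracket the 6 h ones, and without 24 h replicate 1 it was called lower (-0.69, adjusted p = 0.00511).

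Trh, the gene of thyrotropin-releasing hormone, crossed the vehicle level. It held 12.1 and 10.5 CPM under the drug, 321 and 313 at 6 h and 114 and 113 at 24 h (-1.48 ± 0.08, adjusted p = 3.95e-14), against 215 and 183 CPM in vehicle at 24 h and 95.4 and 94.2 at 1 h. The 6 h libraries were above and the 24 h libraries below both vehicle libraries of 24 h. The inactive analog at 24 h held 104 and 112 CPM of Trh, also below them. Ptger2, a prostaglandin receptor gene below that level in the other batch, which the drug lowered further than most of the 8 (-4.22 there), fell from 8.79 and 8.31 to 1.68 and 2.28 CPM (-2.10 ± 0.27, adjusted p = 4.49e-07), against 0.964 and 1.57 in vehicle and 0.202 and 0.153 under the drug.

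All 8 genes that the drug had raised most in the other batch, at the same minimum level, fell between 6 h and 24 h, Fgfbp1 (above) among them. Cryab, a small heat shock protein, went from 122 and 152 CPM under the drug through 82.9 and 79.4 at 6 h to 23.8 and 25.04 at 24 h, where vehicle had 23.1 and 23.3 (-1.73 ± 0.10, adjusted p = 3.44e-14). The matrix protein gene Coch went from 67.8 and 56.1 to 22.9 and 21.9 CPM (-1.47 ± 0.11, adjusted p = 3.79e-11) and stayed above vehicle (15.6 and 13.001 CPM) by 0.64 ± 0.12. The protease gene Ctsc fell from 62.6 and 62.6 to 25.1 and 25.4 CPM (-1.31 ± 0.08), Greb1l (-1.26 ± 0.12) and the serine protease gene Tmprss11d (-2.27 ± 0.22) fell, and Fst, an activin antagonist, reached 22.0 and 24.7 CPM (-0.76 ± 0.09) beside 21.2 and 19.7 in vehicle. The fall of the ciliary gene Cfap45 (-0.53 ± 0.16, adjusted p = 0.00718) was lost without 24 h replicate 2 (adjusted p = 0.0645). Vehicle fell as well over time in Fst and Cfap45. The washout change minus the vehicle change was -0.11 ± 0.12 for Fst (adjusted p = 0.542) and 0.12 ± 0.22 for Cfap45 (adjusted p = 0.732). In the rest of the 8 the washout change was more negative at an adjusted p under 0.05. Among the largest falls, Car2, carbonic anhydrase II, was abundant: 1076 and 1001 CPM under the drug, 806 and 791 at 6 h and 213 and 231 at 24 h (-1.85 ± 0.06, adjusted p = 5.38e-19), against 153 and 148 in vehicle. Enpp3, a cell surface phosphodiesterase, was higher at 6 h of washout (339 and 337 CPM) than under the drug (231 and 234) and fell to 77.3 and 84.8 CPM (-2.06 ± 0.07, adjusted p = 9.56e-19). Samd9l (-3.28 ± 0.18), an interferon-inducible gene, the cytochrome P450 gene Cyp2b23 (-2.97 ± 0.15), the death receptor gene Tnfrsf25 (-2.06 ± 0.22) and the retinoic acid binding protein gene Crabp2 (-1.93 ± 0.18) complete the 15 largest falls.

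Keratin and epithelial envelope genes were higher in 9 of 17 and lower in 1 (median 0.37). The simple epithelial keratins Krt8, from 163 and 158 to 222 and 207 CPM (0.42 ± 0.08), and Krt18 (0.51 ± 0.07) ended above vehicle (134 and 114 CPM for Krt8). Krt7 (1.46 ± 0.18), Cldn7 (0.82 ± 0.14) and Cldn6 (0.37 ± 0.07) rose, the desmosome gene Dsp fell (-0.48 ± 0.07), and the epithelial cadherin gene Cdh1 (-0.14 ± 0.13) and Epcam (-0.13 ± 0.06) were not called.

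Among pluripotency genes the directions were mixed. Of 16 core genes 4 were higher and 7 lower (median -0.17). Nanog, a gatekeeper of the naive state, rose from 400.3 and 387 to 578 and 586 CPM (0.56 ± 0.07, adjusted p = 8e-08), where vehicle held 491 and 572, and Pou5f1, the OCT4 gene, held 1751 and 1663 CPM at 6 h and 1789.5 and 1649.7 at 24 h (0.01 ± 0.07, not called). Lin28a, which blocks let-7 maturation, fell from 1115 and 1107 to 745 and 784 CPM (-0.54 ± 0.05, adjusted p = 5.02e-09), and Sall4 (-0.46 ± 0.06) and Dppa4 (-0.41 ± 0.07) fell. Of 15 naive genes 6 were higher and 4 lower, with Tcl1 (0.91 ± 0.08), Prdm14 (0.37 ± 0.08) and Fbxo15 (0.32 ± 0.06) higher and Stat3 (-0.23 ± 0.05) lower. The lower count was 2 without 6 h replicate 1 or with DESeq2's size factors, and 1 without 6 h replicate 2 or 24 h replicate 2. Vehicle rose as well in Tcl1, and its washout change minus the vehicle change was 0.07 ± 0.12 (adjusted p = 0.725). Over the naive list, 2 of 15 changed more positively than vehicle over time and 3 more negatively. Formative and primed genes were lower in 7 of 10 and higher in 1 (median -0.46). They included Grhl2, an epithelial factor of the exit from the naive state (112 and 114 to 62.0 and 60.3 CPM, -0.89 ± 0.07, adjusted p = 1.97e-10), Cdh2 (-1.06 ± 0.13) and Dnmt3a (-0.38 ± 0.06). At 24 h of washout Grhl2 was still above vehicle (0.23 ± 0.08, adjusted p = 0.0332). Cdh2 (0.13 ± 0.15) and Dnmt3a (-0.12 ± 0.06) were not called against it. The 1 rise, of Zic5 (0.49 ± 0.14), was lost without 6 h replicate 1. Relative to vehicle over time, 3 of the 10 were more negative and 0 more positive, beside 1770 and 1684 of all 12517 genes. The difference was -0.67 ± 0.11 for Grhl2 (adjusted p = 2.28e-05), -0.49 ± 0.19 for Cdh2 (adjusted p = 0.0588) and -0.05 ± 0.08 for Dnmt3a (adjusted p = 0.705).

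Genes of the 2-cell-like state, a rare state of embryonic stem cells, split into opposite movements, with 7 of 14 higher and 3 lower (median 0.76). The Zscan4 family rose, for example Zscan4c from 17.8 and 14.6 to 32.8 and 35.01 CPM (1.06 ± 0.14) and Zscan4f from 14.4 and 12.4 to 31.5 and 30.3 CPM (1.20 ± 0.14), against 5.005 and 3.98 and 4.09 and 4.46 CPM in vehicle. These genes were above vehicle at 6 h and further above it at 24 h. Trim43b fell from 19.9 and 15.2 to 0.459 and 0.273 CPM (-5.58 ± 0.34), and Trim43a (-2.87 ± 0.36) and Trim43c (-3.92 ± 0.45) fell with it. Both families have near-identical copies among which reads may be split, so values of single members are uncertain. Relative to vehicle over time, 1 of the 14 was more positive and 2 were more negative, beside 1684 and 1770 of all 12517 genes.

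Metabolic genes mostly rose. Glycolysis and hypoxia genes were higher in 12 of 20 and lower in 1 (median 0.35). Ldha, lactate dehydrogenase A, went from 1145 and 1113 to 1929 and 1800.4 CPM (0.72 ± 0.05, adjusted p = 5.94e-12) and Tpi1 from 398 and 397 to 597 and 542 CPM (0.52 ± 0.07), both above vehicle at 24 h (1368 and 1356 and 386 and 343 CPM). The hypoxia targets Vegfa (0.66 ± 0.08) and Bnip3 (0.69 ± 0.12) rose, and Pdk1 fell (-0.29 ± 0.06) by less than in vehicle over time (difference 0.24, adjusted p = 0.0227). Sterol synthesis genes were higher in 11 of 19 and lower in 3 (median 0.25), among them Dhcr7 (0.91 ± 0.12), Msmo1 (0.56 ± 0.06), Insig1 (0.57 ± 0.07) and Acat2 (0.59 ± 0.06). The lower count was 0 without 6 h replicate 2 and 1 without any other single washed library. DNA replication genes rose by little, in 10 of 18 with 1 lower (median 0.16), led by the clamp loader gene Rfc4 (0.78 ± 0.07), while the cyclin gene Ccne1 fell (-0.34 ± 0.05).

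**Figure D5:**
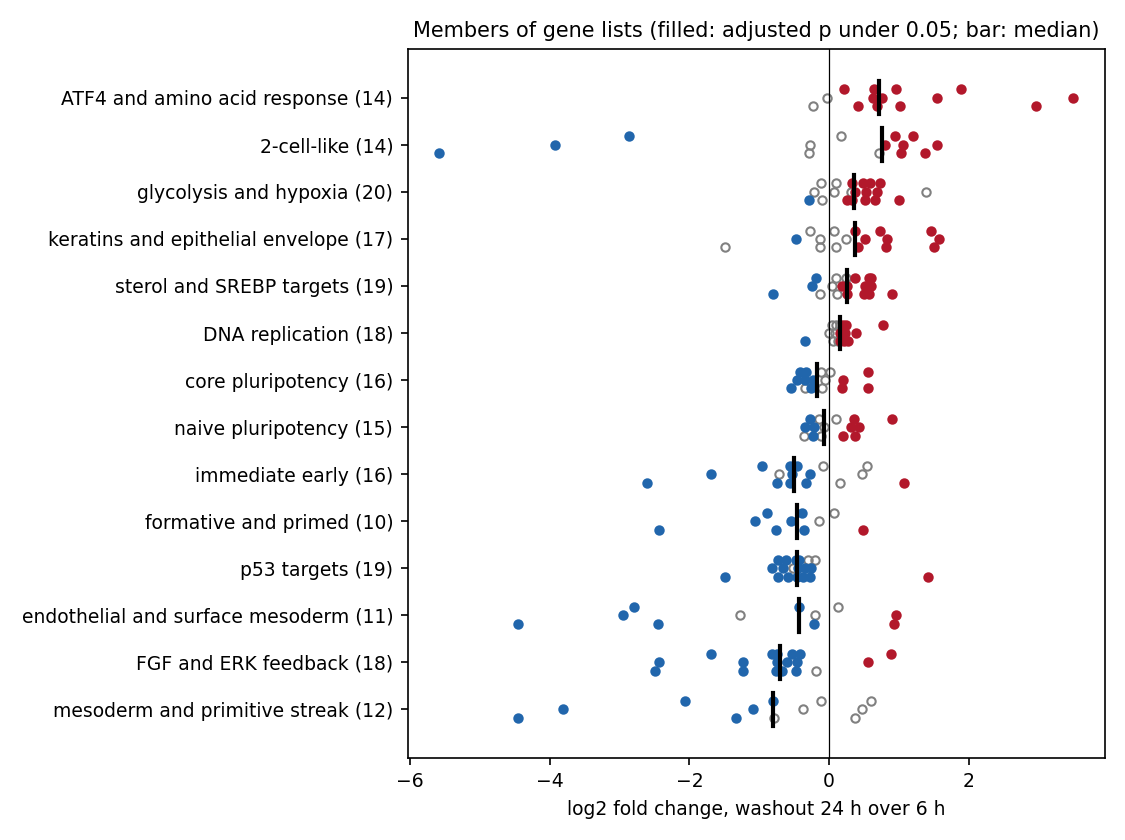
Log2 fold change of 24 h over 6 h of washout for each tested member of 14 gene lists, with the number tested in brackets. Filled points were called (red higher, blue lower), open points were not, and the bar is the list's median, from 0.76 for 2-cell-like genes and 0.72 for the amino acid response to -0.80 for mesoderm.

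For chromatin regulators the counts are set against the 19.0% of all genes called higher and the 21.3% called lower. Of 22 tested SWI/SNF subunit genes 4 were higher and 7 lower (median -0.02), a share of rises near that of all genes. Smarcd3, a subunit of muscle and heart complexes, rose from 6.74 and 8.77 to 17.2 and 15.4 CPM (1.08 ± 0.16, adjusted p = 5.59e-06), Brd9, of the non-canonical complex, fell from 68.4 and 66.8 to 40.7 and 46.5 CPM (-0.63 ± 0.07), and Smarca2, the BRM gene, was not called (-0.03 ± 0.13). The higher count was 2 without either 6 h library. Polycomb genes were higher in 2 and lower in 7 of 15: the methyltransferase gene Ezh2 rose (141 and 139.7 to 215 and 226 CPM, 0.65 ± 0.08) and Pcgf2 (-0.88 ± 0.11), Bmi1 (-0.74 ± 0.12) and Cbx7 (-0.49 ± 0.07) fell. Other remodeller genes were lower in 4 of 7 and higher in 0, among them Bptf (-0.39 ± 0.07). DNA methylation genes were lower in 3 of 10 and higher in 1, a rise seen in 0 without either 6 h library or without 24 h replicate 1.

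Signalling lists other than ERK had fewer calls. Their counts are set against the 19.0% of all genes called higher and the 21.3% called lower. In the Nodal and activin pathway 2 of 13 were higher and 5 lower, with the protease gene Furin (-0.81 ± 0.27) and the receptor gene Acvr2b (-0.63 ± 0.11) lower and Lefty1 (-0.20 ± 0.22) and Lefty2 (-0.24 ± 0.10) not called. The lower count was 3 without 6 h replicate 1 and 2 without 24 h replicate 2. BMP and Id genes were higher in 2 and lower in 5 of 15, including Bmp4, from 98.1 and 101 to 69.6 and 65.4 CPM (-0.56 ± 0.06), and Id3 (-0.90 ± 0.12). Vehicle fell as well in both, and the change in washout minus that in vehicle was 0.46 ± 0.08 for Bmp4 (adjusted p = 0.00014), the smaller fall being that of washout, and 0.01 for Id3 (adjusted p = 0.983). The higher count of the list was 0 without 6 h replicate 1 and 1 without any other. Wnt targets were higher in 1 and lower in 4 of 13, and the lower count was 2 without replicate 2 of either time. The rise was of Ccnd1, cyclin D1, from 139 and 137 to 221 and 207 CPM (0.63 ± 0.05, adjusted p = 3.19e-10), still below the 305 and 329 CPM of vehicle. SRF and YAP/TEAD targets were higher in 2 and lower in 5 of 18, with Ccn2 (-0.75 ± 0.06), Vcl (-0.57 ± 0.06) and Thbs1 (-0.85 ± 0.09) lower, and the 2 rises dropped to 0 or 1 without any single washed library. Relative to vehicle over time, 2 Nodal and activin genes were more positive and 7 more negative, 2 and 1 of the BMP and Id genes, 3 and 2 of the Wnt targets and 1 and 2 of the SRF and YAP/TEAD targets. Over all 12517 genes tested, 1684 were more positive and 1770 more negative.

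The other lists are given by their counts, with the range over leaving out each of the 4 washed libraries in brackets, beside 19.0% higher and 21.3% lower over all genes. Many of these counts are near those shares. Unfolded protein and heat shock genes had 3 of 12 higher [2 to 4] and 5 lower [3 to 5], with Xbp1 lower (-0.92 ± 0.07) and Herpud1 higher (0.89 ± 0.09). Lysosome and autophagy genes had 4 of 16 higher [2 to 3] and 5 lower [3 to 4], oxidative stress genes 5 of 9 higher [3 to 5] and 2 lower [2 to 2], and growth arrest targets 3 of 13 higher [3 to 4] and 2 lower [2 to 3]. Fatty acid synthesis genes had 3 of 5 higher [3 to 3] and 0 lower [0 to 0], led by the desaturase gene Fads2 (0.99 ± 0.08). Mitosis genes had 5 of 16 higher [4 to 5] and 2 lower [0 to 1] and ribosome biogenesis genes 5 of 15 higher [2 to 5] and 2 lower [1 to 2]. Germline genes had 3 of 17 higher [2 to 3] and 5 lower [4 to 6], imprinted genes 4 of 11 higher [3 to 4] and 3 lower [2 to 3], with Peg10 lower (-1.19 ± 0.20, from 835 and 838 to 350.2 and 382 CPM), and interferon genes 3 of 8 higher [1 to 3] and 1 lower [0 to 1]. Among markers of other lineages, endoderm genes had 1 of 15 higher [0 to 1] and 5 lower [3 to 6], neural and ectoderm genes 1 of 6 higher [1 to 1] and 3 lower [2 to 3], with the intermediate filament gene Nes lower (-1.48 ± 0.08), trophoblast genes 3 of 9 higher [3 to 4] and 2 lower [0 to 2], and fibroblast genes 0 of 5 higher [0 to 0] and 2 lower [2 to 3], with Vim lower (-1.08 ± 0.07). Collagen, laminin and matrix genes had 1 of 19 higher [0 to 1] and 7 lower [5 to 6].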

How the data were processed

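Stranded total RNA libraries of mouse embryonic stem cells were sequenced. The authors deposited raw counts per gene, 1 column per library. The submitters' processing notes name bcl2fastq 2.17, STAR and build GRCm38, while a counting program is not given in the sources used here. This table holds 55385 genes, of which 55144 matched GENCODE M21, and 0 columns were unmapped.

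Counts were tested in R 4.3.3 with edgeR 4.0.16 in 1 fit of the 26 libraries of batch 2450 (13 groups of 2, 13 residual degrees of freedom): low genes were removed by filterByExpr (10 counts, 15 in total), TMM factors scaled the libraries, the quasi-likelihood test was robust, and p-values were adjusted by Benjamini-Hochberg over 12517 genes, with calls at an adjusted p under 0.05. The biological coefficient of variation was 6.15%. CPM uses TMM-scaled totals. Fold changes are log2 ± standard error, and pairs of CPM values are replicates 1 and 2. Drug-lowered and drug-raised genes came from a separate fit of the 12 libraries of batch 2457 (13130 genes). That fit held wild-type, Ino80 knockout and Snf2h knockout libraries, and only the wild-type groups were compared. The washed libraries of a group were not identical (chi-square per degree of freedom 3.45 at 6 h and 8.06 at 24 h). The script was tested on simulated data.

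The genes named were the 15 rises and 15 falls with the largest change (at least 2-fold, mean log2 CPM of at least 2, libraries of both groups separated, no predicted models), for each list at most 5 members called, by smallest adjusted p, the 8 most drug-lowered and 8 most drug-raised genes with a mean log2 CPM of at least 2 in batch 2457, and the 8 with the smallest adjusted p for the difference from vehicle over time. Other list members are examples chosen after their values were seen. The members, the 37 lists and the tests were chosen with earlier results of these data known. Of 691 list entries 508 were tested, and 160 had 0 counts in every library. Promoter windows are RefSeq's. Alternatives were DESeq2 1.42.0, other size factors, filters and thresholds, fewer libraries and a replicate block.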

Additional observations from a re-analysis of the deposited data

Results flagged for a closer look

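The change over 18 h of washout differed from the change over 23 h of vehicle, by a test of the difference itself, in 1684 genes that were more positive and 1770 that were more negative in washout. The 8 genes with the smallest adjusted p for this difference follow, with the log2 change in washout minus that in vehicle. Trh differed by -2.55, falling in washout while it rose in vehicle. Mmrn2 (-2.62) and Mcam (-1.91) likewise fell in washout and rose in vehicle. Enpp3 (-1.83) and Car2 (-1.32) fell in both, further in washout. Gpt2 (1.46) rose in both, further in washout. Trib3 differed by 1.74, and Syce1, a synaptonemal complex gene, by 1.58, rising in washout while it fell in vehicle. The wash and the unequal intervals cannot be told apart from recovery in this comparison.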

How the results depend on the processing

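Over 201 named genes, 4421 values were recomputed. No value called in the main fit or in the alternative reversed direction. On the same side of the threshold stayed 4238 values, among which a change of sign between uncalled values was not counted as a reversal. The count of 5046 calls was 5088 with DESeq2's size factors in edgeR, 5017 without the filter, 4691 with DESeq2 and 5289 with the compared libraries alone, and 3620 passed an adjusted p under 0.01. Leaving out 1 washed library gave 3701 to 4313 calls, 1800 to 2071 higher and 1836 to 2242 lower. The share of calls that were higher, 47.2%, lay between 47.2% and 51.4% over these settings. Leaving out 1 library gave 2632 to 3604 genes that differed from vehicle over time. The numbers shared by washed replicates did not pair them (correlation of deviations 0.12 between washed groups and -0.09 between vehicle groups), and the fit with a replicate block called 5051 genes, 4989 of them shared with the same sign. Counts of drug-responsive genes moved with the fold used to choose them, as the sets differ in size: at 1.5-fold, 386 lowered genes rose and 322 fell, and 83 raised genes rose and 444 fell; at 4-fold, the counts were 82 and 67, and 3 and 51. Of 666 recomputed list counts 595 stayed within 1.5 times. Apart from single libraries left out, the counts that moved further were those of the naive pluripotency genes called lower (2 in place of 4 with DESeq2's size factors or with the replicate block), sterol (1) and trophoblast genes (1) called lower with DESeq2, and, with the compared libraries alone, keratin genes called lower (3) and Wnt targets (2), immediate early (0) and matrix genes (2) called higher. Genes under about 10 counts per library limit the lists of rare lineages.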
